A study of Mus musculus with 2 samples.

Results

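Accessible chromatin close to microRNA genes was examined in the embryonic mouse limb. The regions described are the 500 shared DNase-seq peaks on chromosomes 1 to 19 whose centre lay within 2 kb of a gene annotated as miRNA and more than 1 kb from every protein-coding start. A shared peak is the merged stretch of peaks from both libraries that overlapped by at least 1 bp. There were 115658 shared peaks on these chromosomes, and 88816 of them were distal, that is, over 1 kb from every protein-coding start. The 500 peaks near miRNA genes therefore made up 0.563% of the distal shared peaks (Wilson 95% interval 0.516 to 0.614%), and the other 88316 distal shared peaks serve as their comparison. A further 453 shared peaks lay within 2 kb of a miRNA gene but were also no more than 1 kb from a protein-coding start, and were not included.

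In DNase-seq, the enzyme DNase I cuts DNA that is not wrapped tightly in nucleosomes, and pile-ups of cut ends mark open chromatin. The labels give 1 group: healthy limb tissue of B6NCrl mouse embryos at 11.5 days, with male and female embryos pooled, no genetic change and no treatment. There were 2 biological replicates with 1 technical replicate each, and both carry the same donor label, so what separates them beyond the replicate number is not given. Whole limb holds mesenchyme, ectoderm, vessels, nerves and blood, and a weak peak in many cells cannot be told apart from a strong peak in few cells. Because there was no second condition, no test between conditions was possible, and intervals below cover counting error over regions only.

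The autosomal lists held 170134 peaks in replicate 1 and 163248 in replicate 2. Read depth is unknown, since no read counts were used here. The peak signal is the authors' value per peak, a whole number between 2 and 149 on these chromosomes, and its scaling is not given in the sources used here. It was therefore compared only as a percentile among all autosomal peaks of the same library. The tissue label was compared with peaks at protein-coding starts. Of 8 genes that mark limb mesenchyme, a start of 8 had a shared peak no more than 1 kb away, among them Prrx1 (116 in replicate 1 and 111 in replicate 2), Hand2 (115 and 105) and Twist1 (123 and 126). None of 4 liver genes (Alb, Afp, Apoa2, Ttr) and none of 4 blood genes (Klf1, Hba-a1, Hbb-bt, Ptprc) had one. These genes were chosen after values had been seen, and the share of all protein-coding genes with such a peak was not counted. The counts therefore describe the tissue label and do not test it.

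A microRNA is cut from a hairpin that forms in a longer primary transcript. Drosha releases the hairpin in the nucleus, Dicer cuts it in the cytoplasm, and a mature strand of about the length of the sequences below is loaded onto an Argonaute protein. It then pairs with messenger RNAs mainly through its seed, bases 2 to 8, and lowers their translation and stability. Many miRNA genes lie in introns of protein-coding or long noncoding hosts, and the start of the primary transcript can be far from the hairpin. In the limb, loss of Dicer in the mesenchyme gives small limbs, and loss of Dnm3os, the long noncoding host of miR-199a-2 and miR-214, gives skeletal defects and poor growth in mice.

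The mature sequences below, from RefSeq (GRCm38.p6), belong to miRNA genes whose peaks are described in the following paragraphs, grouped by seed, and capitals mark the seed. The first 2 share the seed CAGUAGU, and miR-199b-3p has the same letters throughout as miR-199a-3p, which is made from Mir199a-1 and Mir199a-2. The next 3 are let-7 miRNAs with the seed GAGGUAG, the next pair shares AAAGUGC, and the pair after that shares AACAGUC. The rest are single examples from the genes with the strongest peaks and from the limb, Hox, epithelial (miR-203) and neural (miR-9) lists described below.
miR-199a-3p: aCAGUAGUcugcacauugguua
miR-199b-3p: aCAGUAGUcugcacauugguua
let-7e-5p: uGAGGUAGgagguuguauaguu
let-7g-5p: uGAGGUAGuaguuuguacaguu
let-7i-5p: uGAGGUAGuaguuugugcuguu
miR-17-5p: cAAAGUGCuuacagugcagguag
miR-20a-5p: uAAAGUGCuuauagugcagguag
miR-132-3p: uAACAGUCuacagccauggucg
miR-212-3p: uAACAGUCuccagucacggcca
miR-199a-5p: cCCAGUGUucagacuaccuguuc
miR-214-3p: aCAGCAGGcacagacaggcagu
miR-210-3p: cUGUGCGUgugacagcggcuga
miR-148a-3p: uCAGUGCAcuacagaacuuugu
miR-760-3p: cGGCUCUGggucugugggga
miR-22-3p: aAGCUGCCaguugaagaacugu
miR-196b-5p: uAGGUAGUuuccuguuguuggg
miR-203-3p: gUGAAAUGuuuaggaccacuag
miR-9-5p: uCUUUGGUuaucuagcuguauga

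The strongest 5 of the 500 peaks are shown next as they read on the plus strand of GRCm38.p6, and these sequences carry the base composition and motif counts reported later. Capitals mark GGGCGG on either strand, the core bound by Sp and Klf factors, except that the capitals near the end of the Mir210 peak also cover a match to the CTCF consensus, and those of the Mir199a-2 peak mark a CArG box, the site bound by SRF. Gene names follow the nearest annotated miRNA gene. The Gm23363 peak also lies within 2 kb of Mir199b, and Gm23363 is a separate hairpin gene on the same strand.
Mir210 peak, chr7:141221816-141221985: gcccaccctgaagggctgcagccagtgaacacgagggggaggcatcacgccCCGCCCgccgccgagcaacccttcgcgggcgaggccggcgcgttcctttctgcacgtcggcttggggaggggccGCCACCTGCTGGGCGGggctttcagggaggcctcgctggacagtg
Mir7655 peak, chr2:18056896-18057045: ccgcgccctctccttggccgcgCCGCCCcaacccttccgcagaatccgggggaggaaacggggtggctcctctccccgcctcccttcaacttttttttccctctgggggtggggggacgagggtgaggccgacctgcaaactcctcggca
Gm23363 and Mir199b peak, chr2:32318076-32318265: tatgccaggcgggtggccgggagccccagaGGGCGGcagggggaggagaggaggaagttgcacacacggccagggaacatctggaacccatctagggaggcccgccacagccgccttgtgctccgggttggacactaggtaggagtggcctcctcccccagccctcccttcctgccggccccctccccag
Mir199a-2 peak, chr1:162217516-162217705: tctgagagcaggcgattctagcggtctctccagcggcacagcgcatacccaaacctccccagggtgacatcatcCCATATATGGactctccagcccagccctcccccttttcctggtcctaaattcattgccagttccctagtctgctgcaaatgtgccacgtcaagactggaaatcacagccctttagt
Mir148a peak, chr6:51270956-51271125: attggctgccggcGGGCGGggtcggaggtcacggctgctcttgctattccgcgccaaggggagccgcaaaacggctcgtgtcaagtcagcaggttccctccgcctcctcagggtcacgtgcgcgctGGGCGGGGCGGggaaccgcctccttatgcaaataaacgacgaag

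The Mir210 peak had the highest mean percentile of the 500. Its signal was 127 in replicate 1 and 137 in replicate 2, at percentiles 99.2 and 100, and its centre lay 408 bp upstream of the hairpin, which is on the minus strand. miR-210 is best known as a miRNA induced in low oxygen. The window held 73.3% GC and 17 CpG. Mir7655, in an intron of Mllt10, had the second strongest peak, with 124 in replicate 1 and 132 in replicate 2. It also had the sixth (117 and 124), whose centre lay 12 bp from a start of the long noncoding RNA 1810059C17Rik. Both lay upstream of the hairpin, and both were outside the 1 kb limit around protein-coding starts, at 1734 and 1364 bp from the nearest one.

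The next 2 peaks belong to the miR-199 family, whose mature strands are abundant in mesenchymal cells. The Gm23363 and Mir199b peak reached 127 in replicate 1 and 123 in replicate 2, and the Mir199a-2 peak 129 and 121. Both sit in introns of a dynamin gene on the opposite strand, Dnm1 for the first and Dnm3 for the second. The centre of the Mir199a-2 peak lay 12 bp from a start of Dnm3os and 203 bp upstream of the hairpin. Mir148a, whose product shares its seed CAGUGCA with miR-148b, followed with 116 and 128 at a peak centred 1131 bp upstream. That peak was 161629 bp from the nearest protein-coding start, the farthest of the first 5.

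The remaining peaks of the first 10 were at Gm47305 (123 in replicate 1 and 116 in replicate 2), Mir1894 (123 and 115, in an intron of Ppp1r10), Mir6769b (120 and 117, in an untranslated exon of Unc13a) and Mir760 (125 and 111, 391 bp from a start of the long noncoding RNA Gm17494). The libraries ordered these peaks differently. Each of the 10 was at percentile 95.6 or above in both, which choosing them by mean percentile largely sets in advance. Of the 10, 7 lay upstream of the nearest hairpin, 1 overlapped it and 2 lay downstream.

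Several genes had more than 1 peak. Of 378 miRNA genes with at least 1 of the 500 peaks, 267 had 1, 77 had 2, 22 had 3 and 2 had 4. Mirlet7i and Mir214 had 7 each, Mir199b had 6, and 7 genes tied at 5: Mir199a-2, Gm23363, Mir760, Mir5103, Mir3089, Gm23366 and n-TStga1. The last is a transfer RNA gene by its symbol, although the annotation types it as miRNA. Conversely, 465 peaks had 1 miRNA gene within 2 kb, 26 had 2, 3 had 3 and 6 had 4. Genes that lie close together share peaks, so the gene and peak counts are not independent.

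**Figure D1:**
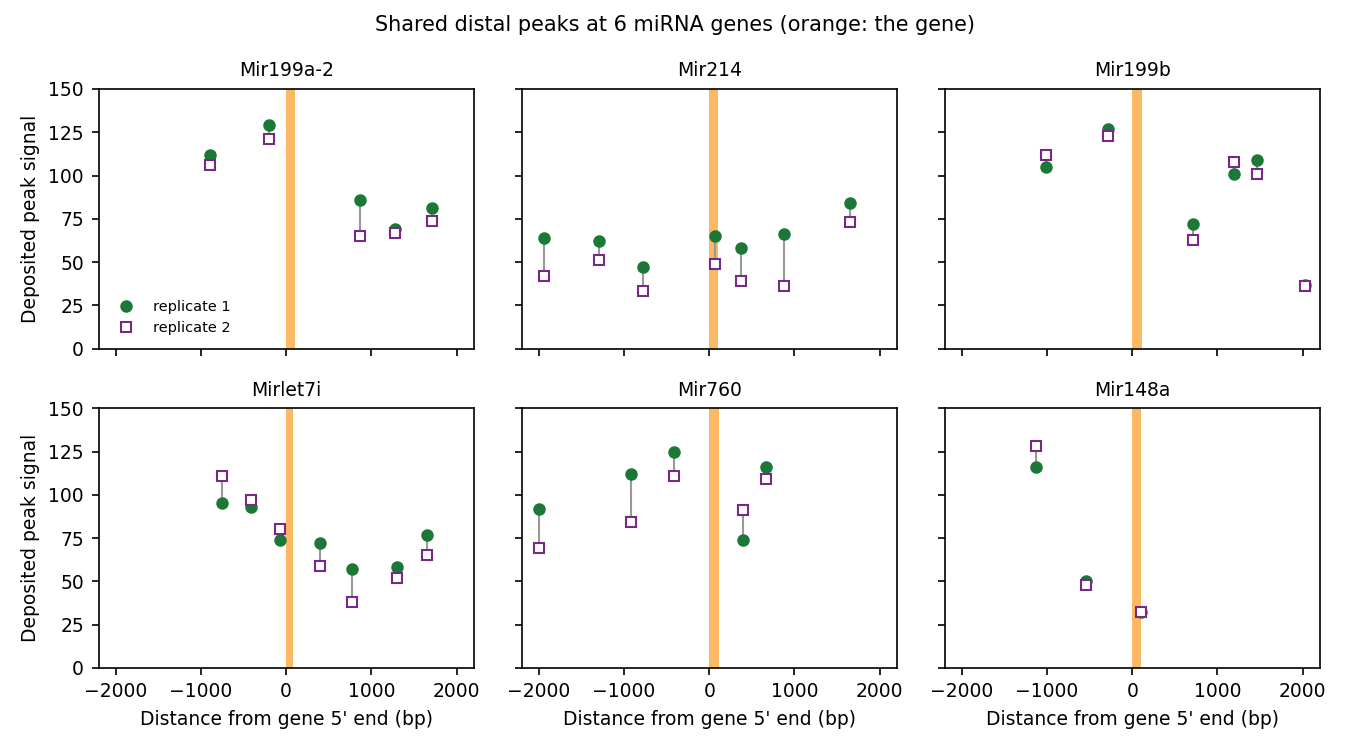
Each panel plots the deposited peak signal (y axis, in the authors' units) of the shared distal peaks of 1 gene against the distance of the peak centre from the 5′ end of the hairpin along its strand (x axis, bp). Green circles are replicate 1, open purple squares replicate 2, and the orange band is the hairpin gene. At Mir199a-2 and Mir199b a peak above 120 lies just upstream of the hairpin, whereas the 7 peaks at Mir214 stay at 84 or below.

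Mir199a-2 and Mir214 both lie within Dnm3 and are both carried by Dnm3os, but their peaks differed in strength. At Mir199a-2 the 5 peaks had signals of 112, 129, 86, 69 and 81 in replicate 1 and 106, 121, 65, 67 and 74 in replicate 2, read along the plus strand. At Mir214 the 7 peaks had 64, 62, 47, 65, 58, 66 and 84 in replicate 1 and 42, 51, 33, 49, 39, 36 and 73 in replicate 2. Each of the 7 Mir214 peaks had a higher percentile in replicate 1, as did 273 of the 500 and 51153 of the 88316 other distal shared peaks. The 5 Mir199a-2 peaks all lay in hotspots (broader enriched regions, called separately) at the −log10 q ceiling of 100 in both libraries. Of the 7 Mir214 peaks, 1 did, the most downstream one, while the other 6 lay in hotspots between 2.78 and 5.70 in replicate 1 and between 1.68 and 3.39 in replicate 2.

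At Mir199b the 6 peaks along the strand had 105, 127, 72, 101, 109 and 37 in replicate 1 and 112, 123, 63, 108, 101 and 36 in replicate 2. In both libraries the peak 289 bp upstream of the hairpin was highest and the one 2031 bp downstream of the 5′ end lowest, while the order of the 3 between 101 and 112 differed. With starts of all transcripts of protein-coding genes in the distance rule, 1 of these 6 would remain. Mir199a-1, the third gene with the seed CAGUAGU, had 2 peaks. The one centred 337 bp upstream reached 112 in replicate 1 and 110 in replicate 2, and the one 443 bp downstream of the 5′ end had 39 and 22. Each of the 3 genes of this seed therefore had a peak of at least 110 in both libraries, centred 203, 289 or 337 bp upstream of the hairpin.

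Mirlet7i, a member of the let-7 family that rises as cells differentiate, lies 90301 bp from the nearest protein-coding start and had 7 peaks spread over both sides of the hairpin. Read from 747 bp upstream to 1653 bp downstream of its 5′ end, the deposited values ran 95, 93, 74, 72, 57, 58 and 77 in replicate 1, beside 111, 97, 80, 59, 38, 52 and 65 in replicate 2. The 3 most upstream peaks and the one at 1303 bp had the higher percentile in replicate 2, and the other 3 in replicate 1. The peak centred 77 bp upstream covers part of the hairpin. Its sequence on the plus strand of GRCm38.p6 is given below, with the covered part of the hairpin, which is transcribed from the minus strand, in capitals. The reverse complement of the let-7i seed shown above lies within those capitals.
Mirlet7i peak, chr10:122985676-122985925: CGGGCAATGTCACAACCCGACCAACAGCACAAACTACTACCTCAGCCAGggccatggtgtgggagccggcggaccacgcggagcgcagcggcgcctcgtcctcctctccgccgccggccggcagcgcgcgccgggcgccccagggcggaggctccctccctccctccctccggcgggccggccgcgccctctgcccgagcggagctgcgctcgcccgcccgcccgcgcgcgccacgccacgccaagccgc

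Of 2054 autosomal miRNA genes, 378 had at least 1 of the 500 peaks, or 18.4% (Wilson 95% interval 16.8 to 20.1%). Another 148 had shared peaks within 2 kb only inside the 1 kb promoter zone of a protein-coding gene. Of the 2054 genes, 887 could be matched to a RefSeq miRNA, 882 by symbol and 5 by coordinates, and 1167 had no match. Among matched genes 218 had a peak (24.6%, 21.9 to 27.5%), against 160 of the unmatched genes (13.7%, 11.9 to 15.8%). The unmatched genes included Mir143, Mir145a and Mir99b, which are in the lists below. Of the 500 peaks, 298 (59.6%) lay within 2 kb of a matched gene. By chromosome the share of genes with a peak was lowest on chromosome 19, at 10% (6 of 60), and highest on chromosome 11, at 25.5% (35 of 137).

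The genes were also read by role, in 12 lists of miRNAs with known roles, holding 174 names, of which 163 are annotated on autosomes. The lists were chosen with earlier results of these data known, so they describe and do not test. In all, 49 of the 163 had at least 1 of the 500 peaks, beside 18.4% of all miRNA genes. Of miRNA genes matched to RefSeq 24.6% had one. When only matched genes were used, 44 of the listed genes had one. How many of the 163 are matched is not given here, so the 44 cannot be read as a share.

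Of 13 miRNA genes tied to limb mesenchyme and cartilage, 8 had a peak. After the miR-199 genes, the strongest was shared by Mir143 and Mir145a, a smooth muscle pair on chromosome 18, with 110 in replicate 1 and 83 in replicate 2. Mir22 had 2 peaks, the stronger at 99 and 88. Mir675, processed from the imprinted transcript H19, had 1 peak of 85 and 82, centred 88 bp from a start of H19. Mir214 completes the 8. No shared peak lay within 2 kb of Mir140, the cartilage miRNA in an intron of Wwp2, nor of Mir21a, Mir455, Mir218-1 or Mir218-2. Mir218-2 had 1 peak in replicate 2 alone, and the other 4 had none in either library.

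The Hox list holds miRNAs within the Hox clusters, some of which target Hox messenger RNAs. Mir196b, between Hoxa9 and Hoxa10, had 2 of the 500 peaks, 99 and 86 in replicate 1 and 104 and 97 in replicate 2. With starts of all transcripts of protein-coding genes in the distance rule, Mir196b would have 0, and with it the Hox list. Both lay in hotspots well under the ceiling, at 3.22 in replicate 1 and 4.26 in replicate 2. Mir10a and Mir615 each had 1 shared peak, but within 1 kb of a protein-coding start. That near Mir10a had 92 and 99, and that near Mir615 had 115 and 104. The other 3 had distal peaks that were not shared. Mir10b had 1 in replicate 2, Mir196a-1 had 4 in replicate 2, and Mir196a-2 had 2 in each library at different places. The strongest private peaks, those outside every peak and hotspot of the other library, near any listed gene in replicate 1 included both of those at Mir196a-2, at 69 and 58.

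Among miRNAs that act on growth and timing, 4 of 13 cell growth genes had a peak. The 4 are Mir17, Mir18, Mir19a and Mir20a of the Mir17 cluster, which promotes proliferation, and they share a single peak of 96 in replicate 1 and 92 in replicate 2, centred 1430 bp upstream of Mir17 and within 1 kb of a start of the host transcript Mir17hg. The Mir15, Mir16 and Mir106b to Mir25 genes had none. Of 16 genes of the let-7, miR-99 and miR-125 families 7 had one. Mir125a, Mir99b and Mirlet7e share a peak of 106 and 112, which lies 1497 bp from a protein-coding start, and the 3 genes have 0 peaks when over 2 kb is required. Mirlet7i (95 and 111) and Mir125b-1 (89 and 86) followed, and Mirlet7g and Mir125b-2 had weaker peaks. That of Mirlet7g is lost with starts of all transcripts of protein-coding genes. The other 9, Mirlet7a-1, Mirlet7d and Mir100 among them, had no distal peak in either library.

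Markers of the other tissues in the limb gave mixed counts. Of 10 miRNAs of epithelium and ectoderm, 5 had a peak: Mir203, a keratinocyte miRNA, had 2, the stronger at 79 in replicate 1 and 73 in replicate 2. Mir141 and Mir200c shared one of 68 and 59, Mir182 had 78 and 50, and Mir205 had 41 and 26. Of 9 in the endothelium list, 6 had one, but these belong to the Mir23, Mir27 and Mir24 clusters, which are used widely. Mir24-2 and Mir27a share a peak of 93 and 80, and Mir23b, Mir27b, Mir24-1 and Mir3074-1 share one of 94 and 75, which is lost with starts of all transcripts of protein-coding genes. Mir126a and Mir126b, the defining endothelial pair in an intron of Egfl7, had no distal peak in either library.

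Of 9 muscle miRNAs, 2 had a peak. Mir499, in an intron of Myh7b, had 65 in replicate 1 and 49 in replicate 2, and Mir206 had 37 and 26, at percentiles 30.3 and 22.6. Mir133a-1, Mir133a-2, Mir133b, Mir1a-2, Mir208a and Mir208b had none. Of 13 blood miRNAs, 0 had a shared distal peak. In a list this short 3 genes already make 23.1%, beside 18.4% of all miRNA genes and 24.6% of those matched to RefSeq. Whether 0 of 13 differs from those shares was not tested. Several of the 13 lie side by side, such as Mir144 and Mir451a, so they do not count independently. Mir486 had 1 peak in replicate 2, and the other 12, including Mir144, Mir451a, Mir142 and Mir155, had none.

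The neural list had the most genes with a peak, 10 of 17, but not the highest share. The shares of the endothelium list (6 of 9) and of limb mesenchyme and cartilage (8 of 13) were higher. Mir9-3, a miRNA of neural progenitors, reached 100 in replicate 1 and 102 in replicate 2. Mir132 and Mir212, which share a seed, also shared their stronger peak of 90 and 112. Mir7b reached 101 and 87, in an exon of a long noncoding RNA, and Mir338, in an intron of Aatk, reached 101 and 84 at a peak lost under that same change of starts. The others (Mir124a-3, Mir137, Mir128-2, Mir219a-2 and Mir219b) had their strongest peaks between 43 and 71 in replicate 1 and between 40 and 65 in replicate 2. All of these except Mir137 also had weaker ones. Mir219a-1 had shared peaks only within 1 kb of a protein-coding start. Distal peaks that were not shared lay near Mir9-1, Mir9-2 and Mir124a-1. Mir124a-2, Mir128-1 and Mir7-1 had none.

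The remaining lists are of tissues or states other than limb. Of 6 liver and gut miRNAs, Mir375 had 2 peaks, the stronger at 47 in replicate 1 and 39 in replicate 2. Of 12 pluripotency miRNAs, Mir293, Mir294 and Mir295 share 1 peak of 76 and 53, in an untranslated exon of Nlrp12. Mir290a, Mir291a, Mir291b and Mir292 share 1 weak peak that was in replicate 2 alone, with a signal of 24. Of 39 in the imprinted Dlk1-Dio3 cluster, Mir136 and Mir434 share a pair of peaks, the stronger at 67 and 64. Mir341 had 2 peaks in replicate 2 alone, the stronger at 54, and the other 36 had none.

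**Figure D2:**
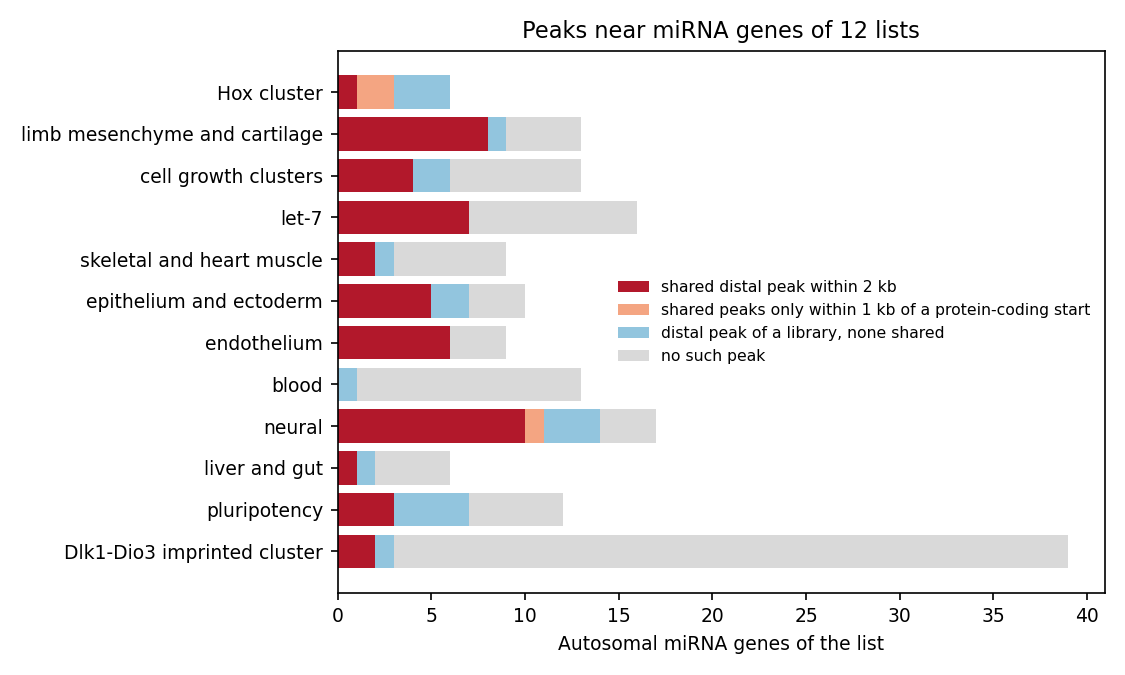
Bars give the number of autosomal miRNA genes (x axis) in each of 12 lists (y axis), split by the kind of peak found within 2 kb. Dark red is at least 1 shared distal peak, orange shared peaks only within 1 kb of a protein-coding start, blue a distal peak of a single library or unshared ones in both, and grey none. The neural list has 10 of 17 in dark red, limb mesenchyme and cartilage 8 of 13, and blood 0 of 13.

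The peaks did not crowd around the hairpins. Of the 500, 44 (8.8%, Wilson 95% interval 6.62 to 11.6%) overlapped the nearest miRNA gene, 237 (47.4%, 43.1 to 51.8%) lay upstream on its strand and 219 (43.8%, 39.5 to 48.2%) downstream. Counts in full bins of 250 bp ranged from 22 to 39 without a central maximum. The intervals of the upstream and downstream shares overlap. The strongest 5 that overlapped a miRNA gene were at Gm23363 (127 in replicate 1 and 123 in replicate 2, overlap 1 bp), Mir1983 (128 and 98, 74 bp), Mir212 (90 and 112, 3 bp), Gm24158 (91 and 93, 12 bp) and n-TStga1 (88 and 73, 109 bp). Signal showed no order with distance: the median of the mean percentile was 70.6 for the 13 centred inside a gene, 64.1 at 1 to 500 bp, 65.0 at 501 to 1000 bp, 58.6 at 1001 to 1500 bp and 69.9 at 1501 to 2000 bp.

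**Figure D3:**
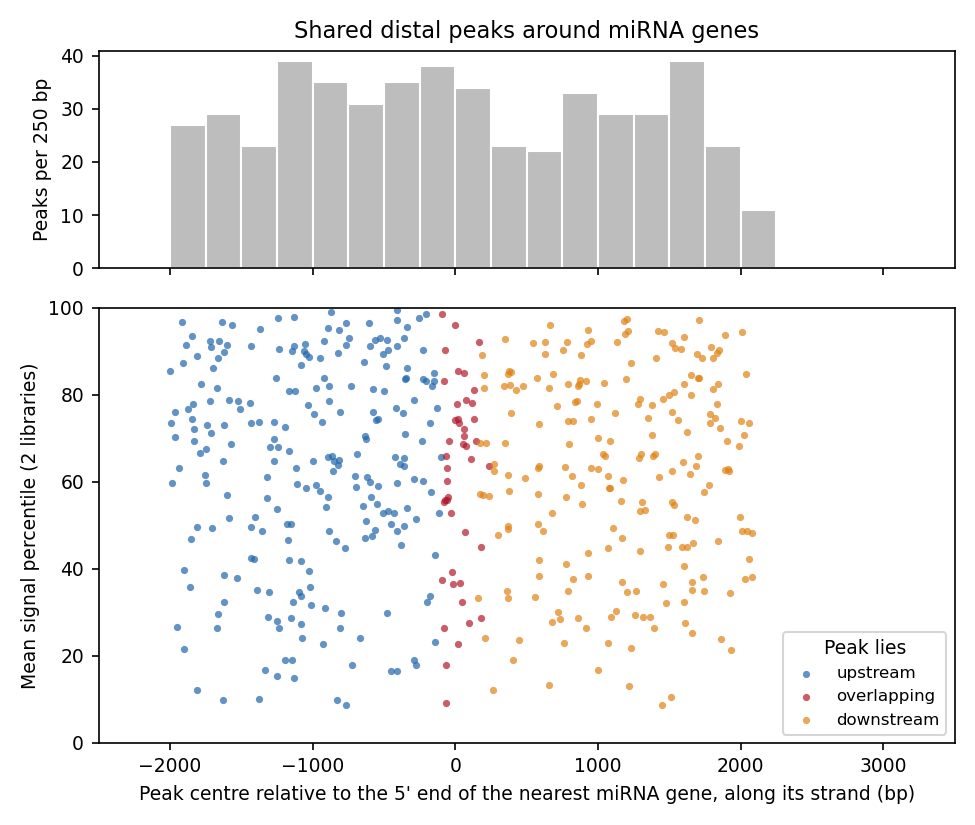
The upper panel counts the peaks near miRNA genes per 250 bp (y axis) by the distance of the peak centre from the 5′ end of the nearest miRNA gene along its strand (x axis, bp). The lower panel gives each peak's mean signal percentile over both libraries (y axis) at the same distance, coloured by whether it lies upstream (blue), overlaps (red) or lies downstream (orange). Full bins hold 22 to 39 peaks, and strong and weak peaks occur at every distance.

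The nearest miRNA gene lay within a protein-coding gene on the same strand for 202 peaks (40.4%), within one on the opposite strand only for 102 (20.4%), and in no protein-coding gene for 196 (39.2%). Peaks near miRNA genes were closer to protein-coding starts than the rest, with a median of 11.6 kb, against 36.3 kb for other distal shared peaks. By their own position, 46.2% (41.9 to 50.6%) were centred in introns of protein-coding genes, against 43.4% of the others, and 36.4% (32.3 to 40.7%) were intergenic, against 45.2%. Coding exons held 5.2% (3.57 to 7.51%), against 1.91%, and untranslated exons held 4.4% (2.92 to 6.57%), against 1.87%. Exons of long noncoding RNAs held 3.8% (2.45 to 5.86%), against 1.23%, whereas their introns held 4% (2.6 to 6.1%), against 6.39%.

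Starts of long noncoding RNAs, such as Dnm3os, H19 and Mir17hg, were also nearer. A start lay within 1 kb of 46 of the 500 peaks (9.2%, Wilson 95% interval 6.97 to 12.1%), against 2787 of the other 88316 (3.16%, 3.04 to 3.27%). The 46 had a median mean percentile of 81.8, and the other 454 near miRNA genes 63.7. Among the other distal shared peaks the same split gave 66.5 with a long noncoding start and 56.8 without. Median GC of the 46 was 59.7%, and their median number of CpG in 150 bp was 6.5.

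Peaks near miRNA genes ranked higher in signal than other distal shared peaks in both libraries. In replicate 1 their median percentile was 67.6, against 59.4, and in replicate 2 it was 65.3, against 56.6. The median signal was 60, against 53, in replicate 1 and 50, against 43, in replicate 2. Members ran from 23 to 129 in replicate 1 and from 16 to 137 in replicate 2, so the groups overlap over nearly the whole range. A mean percentile of 90 or more was reached by 67 of the 500 (13.4%, 10.7 to 16.7%), against 4999 of the others (5.66%, 5.51 to 5.81%), and 30.2%, against 40.7%, were under 50. In both libraries 46.4% (42.1 to 50.8%) lay in hotspots at the ceiling, against 40.5% (40.2 to 40.9%).

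**Figure D4:**
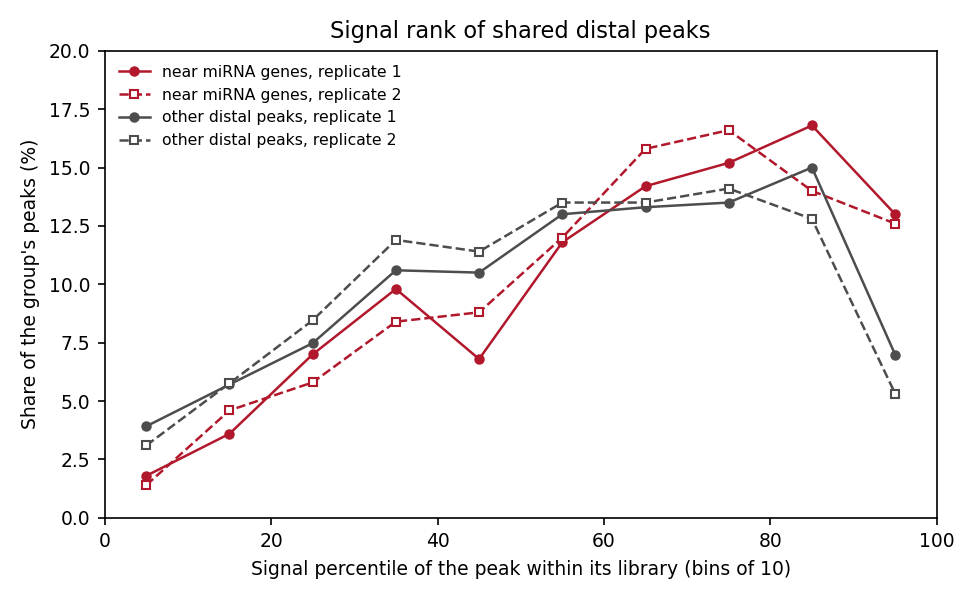
Lines give the share of each group's peaks (y axis, percent) in bins of 10 signal percentiles within a library (x axis). Red is the 500 peaks near miRNA genes and grey the other distal shared peaks. Filled circles and solid lines are replicate 1, and open squares and dashed lines replicate 2. The red lines lie below the grey ones up to percentile 60 and above them from there on, in both libraries.

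Distance to a protein-coding start moved with both signal and GC. Within 1 to 5 kb of a start the median of the mean percentile was 67.2 for 175 peaks near miRNA genes, against 61.7 for other distal peaks. It was 65.7, against 62.1, at 5 to 20 kb (133 peaks), 62.7, against 57.0, at 20 to 100 kb (137 peaks) and 54.7, against 51.1, beyond 100 kb (55 peaks). The peaks near miRNA genes were thus higher within each of the 4 distance classes. Their GC was also higher in each, at 54.0, 53.3, 52.0 and 50.7%, against 52.7, 51.3, 50 and 47.3%. The part of GC content in the signal difference was not tested.

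In the central 150 bp, median GC was 52.7%, against 49.3% in other distal shared peaks, and the median number of CpG was 3, against 2. At least 6 CpG were found in 140 of the 500 (28%, 24.2 to 32.1%), against 12.4% (12.2 to 12.6%), as in the Mir210 and Mir148a sequences above with 17 and 16. The word GGGCGG, on either strand, was in 67 (13.4%, 10.7 to 16.7%), against 7.17% (7.01 to 7.35%), and CCGGAAG, the core of Ets sites, in 13 (2.6%, 1.53 to 4.4%), against 1.31%. TAATTA, a homeodomain core, was in 15 (3%, 1.83 to 4.89%), against 5.44% (5.29 to 5.59%). Both of the first words hold a CpG, and the last holds A and T alone.

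The remaining words had overlapping intervals in the 2 groups. CAGCTG, a core of Twist and other bHLH factors, was in 14.8%, against 16.7%, TGANTCA, the AP-1 core, in 5.4%, against 4.58%, CATTCC, the Tead core, in 10.6%, against 11%, and AGATAA, the Gata core, in 4.2%, against 3.88%. The CTCF consensus matched 6.4%, against 6.75%, and the NFI palindrome 0.2%, against 0.0906%. The CArG box, searched after the Mir199a-2 sequence had been read, was in 5 of the 500 (1%, 0.428 to 2.32%), against 0.996%. Those 5 lay at Mir199a-2, Mir199a-1, Gm44338, Gm44335 and Mir6540. The match at Mir199a-1 was in its weaker peak, with 39 in replicate 1 and 22 in replicate 2. A match of letters does not show that a factor was bound.

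The libraries ranked the 500 peaks alike. As a description, Spearman's rho of the signal was 0.908 over the 500, which share libraries and chromosomes, against 0.888 over the other distal shared peaks. Of the 500, 43 (8.6%) differed by more than 20 percentile points, against 11.7%. The higher percentile was in replicate 1 for 273 and in replicate 2 for 227, against 51153 and 37163 of the other distal shared peaks. In replicate 1, 743 peaks met the same distance rule before sharing and 514 of them (69.2%, 65.8 to 72.4%) overlapped a peak of replicate 2, against 68.9% of other distal peaks. In replicate 2 it was 520 of 724 (71.8%, 68.4 to 75%), against 71.3%. Private peaks, which lay outside all peaks and hotspots of the other library, made up 22.3%, against 25.9%, in replicate 1 and 24.6%, against 25.6%, in replicate 2. The peaks in neither class overlapped a hotspot but no peak of the other library. Besides those at Mir196a-2, the strongest private peaks near a listed gene were at Mir125b-1 in replicate 1 (56) and at Mir341 (54), Mir196a-2 (52) and Mir96 (52) in replicate 2.

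At the edges of the rule, the peaks just inside 2 kb were at Mir760 (1998 bp, 92 in replicate 1 and 69 in replicate 2), Gm44314 (1994 bp, 69 and 56) and Gm23178 (1988 bp, 40 and 33). Just outside were peaks near Mir7672 (2006 bp, 21 and 17), Mir497b (2011 bp, 84 and 86) and Mir5112 (2011 bp, 46 and 24). Peaks just over 1 kb from a protein-coding start were near Mir6953 (1001 bp, 57 and 48), Mir5126 (1010 bp, 36 and 27) and Mir7648 (1012 bp, 59 and 45). Just within that limit, and so left out, were peaks near Mir99b (997 bp, 120 and 105), Gm44354 (996 bp, 39 and 36) and Gm44313 (996 bp, 66 and 49).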

How the data were processed

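DNase-seq of limb was deposited for 2 biological replicates, and per the labels the build was mm10. Per the deposited file descriptions, peaks and hotspots were called on each library's filtered alignment, not on pooled reads. The aligner and the caller are not given in the sources used. Instrument models are named for replicate 2 alone, per the labels. The deposited peak lists give intervals with a signal value, and the deposited hotspot lists a −log10 q-value from 1.30 to a ceiling of 100. Depth is unknown.

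Overlapping peaks of at least 1 bp were merged, with the higher signal of each library kept and ranked as a mid-rank percentile among its autosomal peaks. Annotation was GENCODE M21, with 52063 autosomal starts of protein-coding transcripts. RefSeq GRCm38.p6 sequences were used after a check: no autosomal peak ended beyond its chromosome, and 919 of 919 autosomal hairpins equalled the genome at their coordinates. Words were counted on both strands of the central 150 bp.

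The members and lists were chosen with earlier results of these data known. Named were listed genes with a peak, the 10 strongest peaks, the 5 genes with most peaks including ties, the 5 strongest peaks overlapping a hairpin gene, and the 3 strongest private peaks near listed genes in each library. The limb, liver and blood genes used to check the tissue label and the CArG box were added after values had been seen. With 1 group and 2 libraries no test was run, and Wilson 95% intervals cover counting error over regions, which are not independent. Alternatives changed the overlap, both distances, the peak threshold, the annotation and the use of hotspots, and left out each library. On simulated data 3011 of 3011 overlapping regions and 500 of 500 distances were recovered. Python 3.11.15, NumPy 2.4.6, SciPy 1.17.1, pysam 0.24.0 and Matplotlib 3.10.9 were used.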

Additional observations from a re-analysis of the deposited data

Results flagged for a closer look

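Chromosome X was outside the comparisons, and shared distal peaks near miRNA genes were found there as well. There were 12 among 1932 distal shared peaks of chromosome X, near 15 of its 142 miRNA genes. The strongest, with 96 in replicate 1 and 103 in replicate 2, lay near Mir351, Mir503 and Mir322, a cluster linked to the end of cell division in differentiating cells. Mir542 (69 and 65) and Mir652 (68 and 61) followed. A peak of 57 and 53 lay near Mir106a, Mir18b, Mir20b and Mir19b-2, relatives of the Mir17 cluster described above. Chromosome Y had 0 among 18 distal shared peaks. The embryos were pooled from both sexes, so the level on these chromosomes depends on the mix of sexes, which is not given.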

How the results depend on the processing

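With 1 group and no test, the values below show how far each description moves with the definition, and the cause was not tested unless the alternative itself changes what is counted. Within 1 kb of a miRNA gene there were 260 peaks (0.293% of distal), near 10.6% of genes and 28 of the listed genes, with 16.9% overlapping, 45.8% upstream and 10.4% at a long noncoding start. Within 5 kb there were 1067 (1.2%), near 34.2% of genes and 83 listed genes, with 4.12%, 46.2% and 8.15%. Over 2 kb from protein-coding starts the share of distal peaks was 0.482%, of genes 15%, overlapping 10.4%, upstream 46.3% and at a long noncoding start 9.95%. With peaks above the median signal there were 311 (0.683%), near 12.5% of genes, with a median percentile of 77.8, 9.32% overlapping, 48.9% upstream and 11.3% at a long noncoding start. Reciprocal overlap of 50% gave 0.55%, 17.6% of genes and 7.76% overlapping. Hotspots in place of peaks gave 0.506%, 17.6% of genes, 19% overlapping, 41.7% upstream and 7.07% at a long noncoding start. Without genes whose symbol starts with Gm the values were 0.376%, 22.5% of genes, median percentile 68.3, 10.5% overlapping, 48.5% upstream and 12% at a long noncoding start. A pair of alternatives was chosen after seeing the data. Starts of all transcripts of protein-coding genes gave 444 peaks (0.516%), 16.6% of genes and 9.23% overlapping. RefSeq miRNA genes alone gave 298 peaks (0.336%), 24.6% of genes, median percentile 66.4, 11.4% overlapping and 12.1% at a long noncoding start. Leaving out a library counts every peak of the other, shared or not. This gave 724 to 743 peaks, 0.561 to 0.562% of distal, 22.7 to 23.3% of genes, a median percentile of 53.6 to 55.1, 6.63 to 6.86% overlapping, 47.1 to 47.7% upstream, 9.02 to 9.39% at a long noncoding start and 55 to 66 listed genes. Of 61 named genes, 11 changed their number of peaks by over 1.5 times with starts of all transcripts, 7 of them to 0, and 6 did over 2 kb from protein-coding starts, 4 of them to 0. Mir1894 was lost there and with hotspots, Mir137 with reciprocal overlap, and Mir206, Mir205, Mir219a-2, Mir219b and Mir375 with peaks above the median signal. Within 1 kb, 22 had 0. The RefSeq restriction left 8 at 0, among them Mir143 and Mir145a. No paired analysis was possible because there is 1 group and no test.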
